A study of Rattus norvegicus with 20 samples.

Results

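Epithelial cells hold together through junctions, and 62 genes of these junctions were followed in cultured rat epithelial cells before and after transplantation into skin. The genes were chosen by symbol, with earlier results of these data known. Included were the claudins, cadherins, desmogleins, desmocollins, plakophilins, connexins, junctional adhesion molecules and zonula occludens genes, together with Epcam, Ocln, F11r and Jup. They were 62 of the 14506 genes that the array names with a single symbol. They divided into 24 claudins, 7 other tight junction genes, 15 cadherins, 7 desmosome genes and 9 connexins, and each had 1 probe set. Of the 62, 36 had a mean above 4.77 on the log2 scale, the level under which 40% of all probe sets lay. The other 26 included 12 claudins and 9 cadherins, and small differences among them are hard to tell from background because the table gives no detection call. Cdh3, Dsp and Dsg3 were not analysed here.

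The cells were taken from trachea, esophagus, vagina, oral mucosa and footpad. The donors were Sprague-Dawley rats of the green rat line “CZ-004” SDTgN (act-EGFP)obsCZ-004, which makes enhanced green fluorescent protein in all cells, at postnatal day 200. All groups therefore carried the transgene. In the groups before transplantation the cells were grown on irradiated 3T3-J2 mouse fibroblasts, and in the groups after transplantation they had been placed in the skin of newborn OF1 mice, grafted onto athymic nude mice, recovered and cultured again. Each of the 10 groups had 2 arrays from cultures run in parallel, and cells were sorted on EGFP, a step that removes the mouse feeder but would keep other rat cells. Values were log2 RMA values, so that a difference of 1 is a 2-fold difference. The study calls the duplicates biological replicates, but whether they came from separate animals is not stated, so p-values cover the spread between 2 parallel cultures. The titles carry Roman numerals of unstated meaning, the same before and after only in vagina. The study writes passages this way, and a difference of passage was not tested.

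Tight junctions seal the space between neighboring epithelial cells, with claudins forming the strands and occludin, junctional adhesion molecules and zonula occludens proteins joining them to one another and to actin. Adherens junctions and desmosomes hold the cells together through classical and desmosomal cadherins, and desmosomes anchor the keratin filaments that give stratified epithelia their strength. Gap junctions are channels made of connexins through which small molecules pass between cells.

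Keratinocyte markers were high in every group, with all 9 measured markers above 4.77 in each of the 10 groups and their mean between 10.87 and 11.53 per array, and 1 of them, Krt15, passed the test in each tissue, higher after transplantation in footpad and lower in the other 4. Endothelial markers were low, and the vascular cadherin Cdh5 lay between 4.61 and 5.09 on all arrays. No endothelial or muscle marker, pannexin or other connexin passed in any tissue, and of 10 leukocyte markers only Cd68 did, lower in oral mucosa and vagina. Of 8 melanocyte and Schwann cell markers, Mitf and Ngfr rose in footpad (1.87 and 2.23) and Mbp fell in oral mucosa (-1.03). The mean level of these 8 was 5.0 and 4.81 on the footpad arrays before and 5.27 on both after, and between 4.66 and 4.90 on the arrays of the other tissues. Fibroblast markers moved with transplantation. Of 14 measured, 9 fell in footpad, 7 in vagina and 6 in trachea, none passed in esophagus, and in oral mucosa only Twist1, also a regulator of epithelial state, passed, where it rose. The mean level of the 14 ranged from 6.83 to 7.01 in vagina, footpad and trachea before transplantation and from 5.51 to 6.04 in the other 7 groups.

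Most of the junction genes that passed the test after transplantation did so in oral mucosa or footpad, a pattern that rests on the 2-fold limit: by adjusted p alone 20 of the 62 passed in oral mucosa, 19 in vagina, 14 in esophagus, 16 in footpad and 12 in trachea, beside 26.7%, 25.8%, 18.1%, 39.1% and 18.9% of all genes. A gene was called where limma gave an adjusted p under 0.05 (Benjamini-Hochberg, over all probe sets) and the fold was over 2. In oral mucosa 0 of the 62 rose and 8 fell, where 1.91% of all 14506 genes rose and 3.07% fell. In footpad 7 rose and 3 fell, where 5.25% of all genes rose and 4.02% fell. In vagina 0 rose and 2 fell (0.620% and 2.41% of all genes), in esophagus 0 rose and 1 fell (0.572% and 0.765%), and in trachea 1 rose and 2 fell (0.627% and 0.972%). The shares of the 62 called were 12.9% in oral mucosa, 16.1% in footpad, 3.23% in vagina, 1.61% in esophagus and 4.84% in trachea. The median change of the 62 stayed small, from -0.15 in footpad to 0.09 in oral mucosa, with -0.03 and 0.05 for all probe sets in the same tissues. By family, 5 of the 7 other tight junction genes and 4 of the 24 claudins were called in footpad, and 2 of the 7 and 5 of the 24 in oral mucosa. No cadherin was called in any tissue, and 9 of the 15 had a mean below 4.77.

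**Figure D1:**
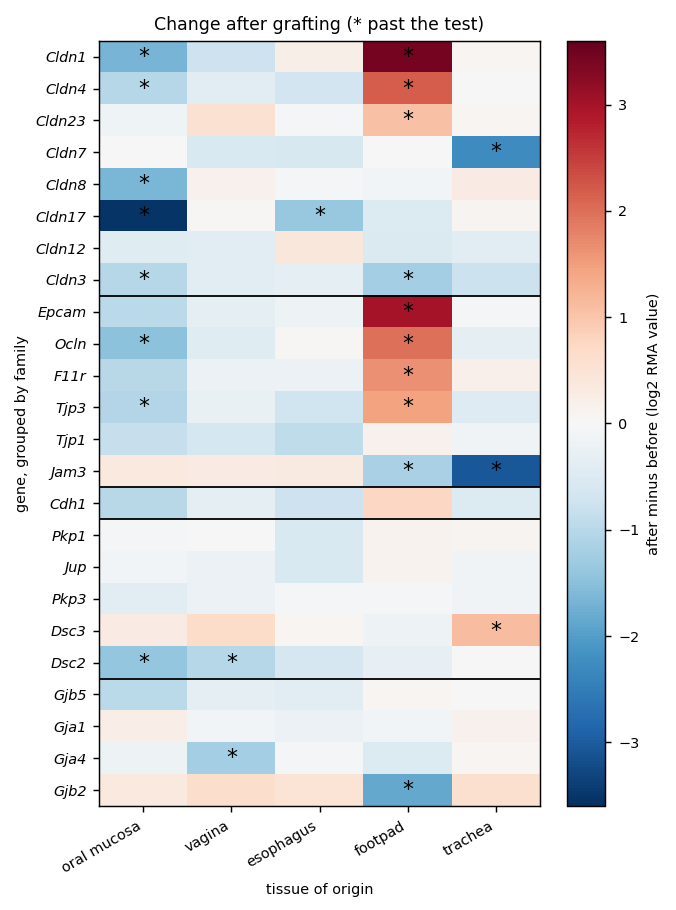
Change after transplantation (after minus before, log2 RMA value, color scale) in the 5 tissues of origin (columns) for 24 genes (rows, grouped by family) that were called in at least 1 tissue or had a mean over 8; an asterisk marks a call. Footpad holds 7 called increases, and oral mucosa holds 8 called decreases and no called increase.

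A set of 6 tight junction genes rose in footpad cells and had lower values in oral mucosa cells after transplantation. Claudin 1 and claudin 4 are strand proteins, Ocln encodes occludin, F11r encodes the junctional adhesion molecule JAM-A, Tjp3 encodes the scaffold ZO-3, and Epcam encodes a surface adhesion protein that binds claudins. Their probe sets were 10751896 (Cldn1), 10757715 (Cldn4), 10820953 (Ocln), 10765600 (F11r), 10893564 (Tjp3) and 10882802 (Epcam). All 6 rose in footpad past the test. In oral mucosa Cldn1, Cldn4, Ocln and Tjp3 fell past the test, whereas Epcam and F11r had adjusted p-values under 0.05 with changes just short of 2-fold. The 6 were grouped after their values had been seen.

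Cldn1 had the widest contrast. In footpad its arrays read 8.39 and 8.56 before and 11.87 and 11.98 after transplantation, a rise of 3.45 ± 0.10 (SE; limma adjusted p = 2.23e-11). In oral mucosa they read 11.39 and 11.54 before and 9.71 and 9.85 after, a change of -1.68 ± 0.10 (limma adjusted p = 3.09e-08). In both tissues the before and after arrays were well apart, and the order of the tissues turned over. Before transplantation footpad was -2.12 from the mean of the other 4 tissues and oral mucosa 1.62 above it, and after transplantation footpad was 1.88 above the mean of the others. In vagina Cldn1 read 10.22 and 10.39 before and 9.54 and 9.59 after, short of the fold, and in esophagus and trachea all 8 arrays lay between 10.06 and 10.63.

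Epcam in footpad read 7.75 and 7.78 before and 10.75 and 10.78 after transplantation, a rise of 3.00 ± 0.09 (limma adjusted p = 6.62e-11). In oral mucosa it read 9.31 and 9.16 before and 8.27 and 8.24 after, a change of -0.98 ± 0.09. Footpad thus went from the lowest of the 5 tissues to the highest. Trachea, the highest before at 10.30 and 10.26, stayed at 10.24 and 10.15.

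Cldn4 in footpad read 10.14 and 10.18 before and 12.31 and 12.36 after, a rise of 2.18 ± 0.07 (limma adjusted p = 9.99e-11). In oral mucosa it read 11.94 and 12.07 before and 10.96 and 10.99 after, a change of -1.03 ± 0.07 (limma adjusted p = 1.8e-07), which fell short of 2-fold, at -0.97, without the second array before transplantation. Esophageal cells had a change of -0.69 ± 0.07 that was also short of the fold. Vaginal arrays went from 11.18 and 11.21 to 10.81 and 10.78, and tracheal arrays lay between 11.63 and 11.71 at both stages.

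Ocln in footpad read 7.14 and 7.47 before and 9.34 and 9.26 after (2.0 ± 0.12, limma adjusted p = 1.49e-08). In oral mucosa it read 9.18 and 9.06 before and 7.72 and 7.60 after (-1.47 ± 0.12, limma adjusted p = 5.58e-07). Before and after arrays did not overlap in either tissue, and the 2 tissues traded places as the lowest of the 5. F11r in footpad read 7.76 and 8.05 before and 9.49 and 9.62 after (1.65 ± 0.11, limma adjusted p = 5.12e-08), and in oral mucosa 9.19 and 9.09 before and 8.13 and 8.16 after (-0.997 ± 0.11). Tjp3 in footpad read 5.65 and 5.54 before and 7.03 and 7.09 after (1.46 ± 0.13, limma adjusted p = 8.32e-07). In oral mucosa it read 7.32 and 7.33 before and 6.21 and 6.31 after (-1.06 ± 0.13, limma adjusted p = 3.49e-05). These genes had the same pattern of separated arrays with opposite signs.

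**Figure D2:**
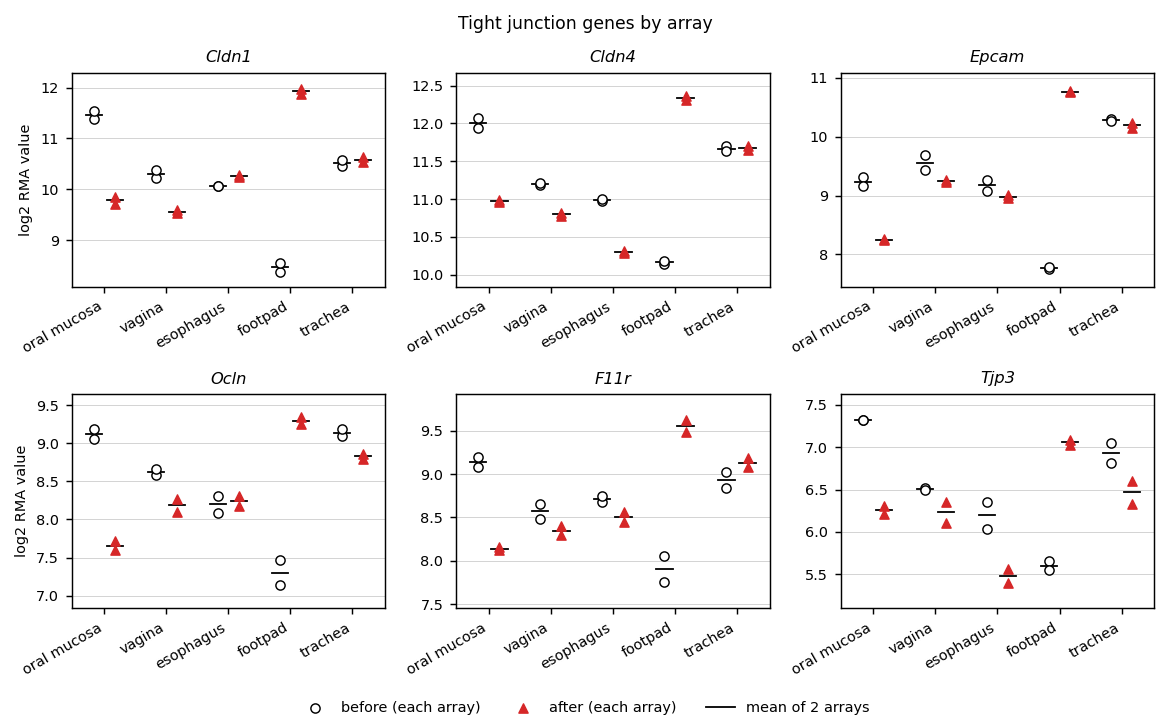
log2 RMA values of 6 tight junction genes (panels, each with its own y axis) on every array, by tissue of origin (x axis); open circles are arrays before transplantation, triangles arrays after, and lines the mean of 2 arrays. In every panel the footpad triangles lie above the footpad circles, and the oral mucosa triangles lie below the oral mucosa circles.

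The difference between the footpad and oral mucosa responses was tested directly, a comparison chosen after the values had been seen. It was called for 14 of the 62 genes, beside 17.2% of all genes. The response of footpad minus that of oral mucosa was 5.14 ± 0.14 for Cldn1 (limma adjusted p = 3.13e-11), 3.98 ± 0.13 for Epcam, 3.46 ± 0.16 for Ocln, 3.21 ± 0.10 for Cldn4, 2.65 ± 0.16 for F11r and 2.52 ± 0.18 for Tjp3. It was also positive for Cldn17, Cldn8, Cldn23, Dsc2, Gjb5 and Cdh1, and negative for Jam3 and Gjb2. Of the 14 fibroblast markers, 9 fell in footpad and none fell in oral mucosa, while of the melanocyte and Schwann cell markers 2 of 8 rose in footpad and 1 of 8 fell in oral mucosa. Those that rose in footpad were Mitf and Ngfr. Tyr, Tyrp1 and Mlana, of the same list, lay at or below 4.04 in both tissues at both stages. In vagina and trachea the changes of the 6 genes ranged from -0.74 to 0.20. The part of fibroblast, melanocyte and Schwann cell markers in the values was not tested.

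**Figure D3:**
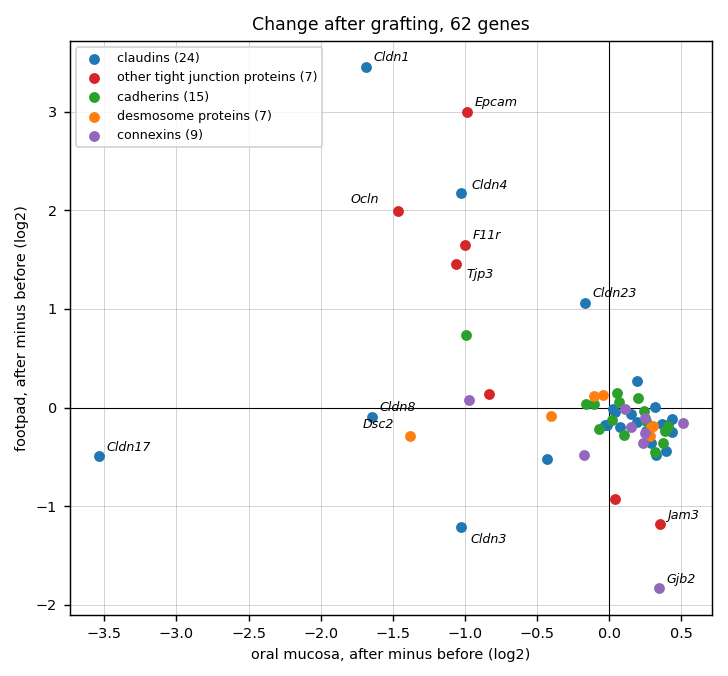
Change after transplantation (after minus before, log2) in oral mucosa (x axis) and footpad (y axis) for the 62 genes, 1 point per gene, colored by family. Cldn1, Epcam, Cldn4, Ocln, F11r and Tjp3 lie at the upper left, and most other genes lie near the origin.

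Promoter sequences of these genes are shown because they moved together. RefSeq promoter windows (GRCr8 assembly) were given for 46 of the 62 genes, and the 250 bases before the start were searched. Cldn4, Jam3 and Cdh1 had no entry. The letters CACCTG, or CAGGTG on the opposite strand, form an E-box of the kind that Zeb and Snail family proteins bind. They were found in 13 of 46 windows (28.3%) and in 4296 of 27457 windows of all genes (15.6%). The windows were chr6:12649679-12649928 (minus strand) for Epcam, chr13:86405979-86406228 (plus) for F11r, chr2:33441199-33441448 (minus) for Ocln, chr7:9084174-9084423 (plus) for Tjp3 and chr11:87926126-87926375 (plus) for Cldn1. They are written 5′ to 3′ toward the start, and capitals mark the E-box.
Epcam: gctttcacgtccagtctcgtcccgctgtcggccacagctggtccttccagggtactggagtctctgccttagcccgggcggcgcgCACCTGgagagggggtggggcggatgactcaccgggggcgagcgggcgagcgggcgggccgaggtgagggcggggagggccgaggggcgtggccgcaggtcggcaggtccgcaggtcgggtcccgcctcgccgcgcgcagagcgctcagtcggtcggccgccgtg
F11r: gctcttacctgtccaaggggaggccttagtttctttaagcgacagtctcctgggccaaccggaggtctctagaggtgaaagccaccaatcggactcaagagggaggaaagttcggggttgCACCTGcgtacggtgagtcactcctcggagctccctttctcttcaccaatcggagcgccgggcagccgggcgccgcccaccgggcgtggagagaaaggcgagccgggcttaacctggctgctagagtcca
Ocln: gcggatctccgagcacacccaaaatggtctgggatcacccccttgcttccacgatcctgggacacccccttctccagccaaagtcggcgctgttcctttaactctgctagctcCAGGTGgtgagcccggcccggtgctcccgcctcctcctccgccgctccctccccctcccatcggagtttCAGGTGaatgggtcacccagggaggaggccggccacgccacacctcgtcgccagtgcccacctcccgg
Tjp3: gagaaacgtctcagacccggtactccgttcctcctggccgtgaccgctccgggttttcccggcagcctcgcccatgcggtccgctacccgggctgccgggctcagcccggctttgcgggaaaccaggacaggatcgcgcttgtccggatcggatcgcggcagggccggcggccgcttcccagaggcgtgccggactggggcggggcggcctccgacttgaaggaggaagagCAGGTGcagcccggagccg
Cldn1: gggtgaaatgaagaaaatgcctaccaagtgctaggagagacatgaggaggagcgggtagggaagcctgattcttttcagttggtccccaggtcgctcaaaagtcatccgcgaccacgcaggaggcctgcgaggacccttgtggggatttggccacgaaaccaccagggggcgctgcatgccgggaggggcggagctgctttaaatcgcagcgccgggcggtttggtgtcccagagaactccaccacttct
The Epcam, F11r and Tjp3 windows each held 1 match and the Ocln window held 2, whereas the Cldn1 window held none. Matches also lay in windows of genes without this pattern. Among them were Cldn7, called in neither footpad nor oral mucosa, and Cldn3 and Gjb2, which fell in footpad. The relation of matches to changes was not tested. A match describes these letters and is not a binding site. Other motifs were searched on both strands in the same windows. The Grhl letters AACCNGTT were found in 1 of 46 windows (2.17%) and in 1.65% of windows of all genes. The AP-1 letters TGANTCA were found in 5 of 46 (10.9%) and in 6.36% of all. The Sp and Klf letters GGGCGG were found in 25 of 46 (54.3%) and in 32.4% of all. The TATAAA box was found in 3 of 46 (6.52%) and in 13.1% of all, and the Ets letters CAGGAAGT in 0 of 46 and in 2.51% of all. None of these shares, nor that of the E-box, was adjusted for the base composition of the windows.

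Among 19 measured regulators of epithelial state, Zeb1, a repressor known to bind E-boxes, rose in oral mucosa from 4.31 and 3.93 to 6.61 and 6.43 (2.40 ± 0.17, limma adjusted p = 1.44e-07). It fell in footpad from 5.97 and 6.44 to 4.34 and 4.34 (-1.86 ± 0.17, limma adjusted p = 8.05e-07). On the 12 arrays of the other 3 tissues it lay between 4.10 and 4.54. The lower values of Zeb1 in both tissues, before in oral mucosa and after in footpad, were under 4.77, so the sizes of these changes are uncertain. Elf3, an epithelial transcription factor of the Ets family, went from 9.82 and 9.76 to 6.51 and 6.67 in oral mucosa and from 5.19 and 5.19 to 8.24 and 8.38 in footpad. Twist1 and Zeb2 rose in oral mucosa, Twist1 fell in footpad, and Ovol1 and Esrp1, which are known to hold the epithelial state, rose in footpad. In vagina and esophagus Elf3 was the only regulator called, lower in both, and in trachea none was called. No relation between these regulators and the junction genes was tested.

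Partners of the junction proteins were described by lists. Of 15 tight junction partners, Marveld2, which encodes tricellulin, fell in oral mucosa (-1.10) and rose in footpad (1.24), and Cxadr, a junction protein that serves as a virus receptor, rose in footpad (1.93), while Cgnl1 fell in vagina (-1.48). Of 13 adherens junction partners, Nectin4 fell in oral mucosa (-1.08) and Nectin2 rose in footpad (1.55), and no catenin passed. Of 8 genes for surface proteases and their inhibitors that act on Epcam and claudin 7, 4 fell in oral mucosa and 2 rose in footpad. The inhibitor Spint1 was called in both, at -1.56 in oral mucosa and 1.49 in footpad, and so was the protease Prss8, at -1.58 and 1.65. Prss8 also fell in vagina (-1.05).

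Other claudins followed their own patterns. Cldn3, another strand protein, fell in footpad from 6.89 and 7.27 to 5.94 and 5.80 (-1.21 ± 0.14, limma adjusted p = 8.16e-06), although Cldn4, the protein-coding gene next to it on the chromosome, rose there. In oral mucosa Cldn3 went from 8.45 and 8.54 to 7.32 and 7.62 (-1.02 ± 0.14, limma adjusted p = 7.99e-05). That fall was below 2-fold without the second array before (-0.98) or the first array after transplantation (-0.87). Cldn3 was lower after transplantation in 5 of 5 tissues, with a mean change of -0.75 ± 0.14 over tissues that did not pass adjustment (limma adjusted p = 0.302). Its response differed between tissues by up to 0.85 (limma F test, adjusted p = 0.0081), short of the 2-fold limit, and so was not called. Cldn23 rose in footpad from 7.28 and 7.20 to 8.24 and 8.36 (1.06 ± 0.15, limma adjusted p = 6.3e-05).

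Cldn17, an anion-selective channel claudin, was highest in oral mucosa before transplantation and fell there after it. Oral mucosa read 9.58 and 8.79 before and 5.85 and 5.44 after (-3.54 ± 0.24, limma adjusted p = 1.34e-07). Esophagus, the only other tissue above 5 before transplantation, went from 6.76 and 6.23 to 4.97 and 5.31 (-1.35 ± 0.24, limma adjusted p = 0.00188). The 12 arrays of vagina, footpad and trachea lay between 3.97 and 4.98. Before transplantation oral mucosa was 4.10 ± 0.19 above the mean of the other 4 tissues (limma adjusted p = 3.3e-09), the largest such difference among the 62 genes. After transplantation both oral mucosa arrays were still the highest, 0.98 ± 0.19 above the mean of the others (limma adjusted p = 0.00162), just short of 2-fold. Cldn8, the adjacent gene, fell in oral mucosa from 4.69 and 4.42 to 2.82 and 3.01 (-1.64 ± 0.17, limma adjusted p = 8.45e-06), and its 16 arrays of other tissues lay between 2.42 and 3.39. All Cldn8 values were below 4.77, so the size of that change is uncertain.

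Cldn7 and Jam3 were highest in tracheal cells before transplantation and fell there after it. Cldn7, a claudin that binds Epcam, read 7.11 and 7.24 in trachea before and 4.77 and 5.07 after (-2.25 ± 0.15, limma adjusted p = 3.79e-07), and the 16 arrays of other tissues lay between 3.80 and 5.01. After transplantation trachea was 0.57 ± 0.11 above the mean of the others (limma adjusted p = 0.00287), short of 2-fold. The tracheal Cldn7 mean was then 4.92 and those of the other tissues were below 4.77. The sizes of the fall and of this difference are therefore uncertain. Jam3, a junctional adhesion molecule, read 7.82 and 8.04 in trachea before and 5.02 and 4.77 after (-3.04 ± 0.16, limma adjusted p = 6.1e-08). In footpad it went from 6.04 and 5.77 to 4.58 and 4.87 (-1.18 ± 0.16, limma adjusted p = 3.47e-05), and the 12 arrays of the other tissues lay between 4.42 and 5.10. After transplantation the tissues were not called as different for Jam3 (limma F test, adjusted p = 0.531) and their means were within 0.29 of each other. All 5 of these means lay near 4.77, between 4.72 and 5.01, where differences between tissues may not be measurable. In such cell populations, fewer cells of a type and less RNA per cell cannot be told apart. Of the 14 fibroblast markers, 6 fell in trachea and 9 in footpad, and their part in these values was not tested. In vagina, where 7 fell and Col1a1 went from 9.36 and 9.11 to 6.77 and 6.92, Jam3 was 4.64 and 4.77 before and 5.05 and 4.94 after. These vaginal Jam3 values lay near 4.77 at both stages, where a fall may not be measurable.

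**Figure D4:**
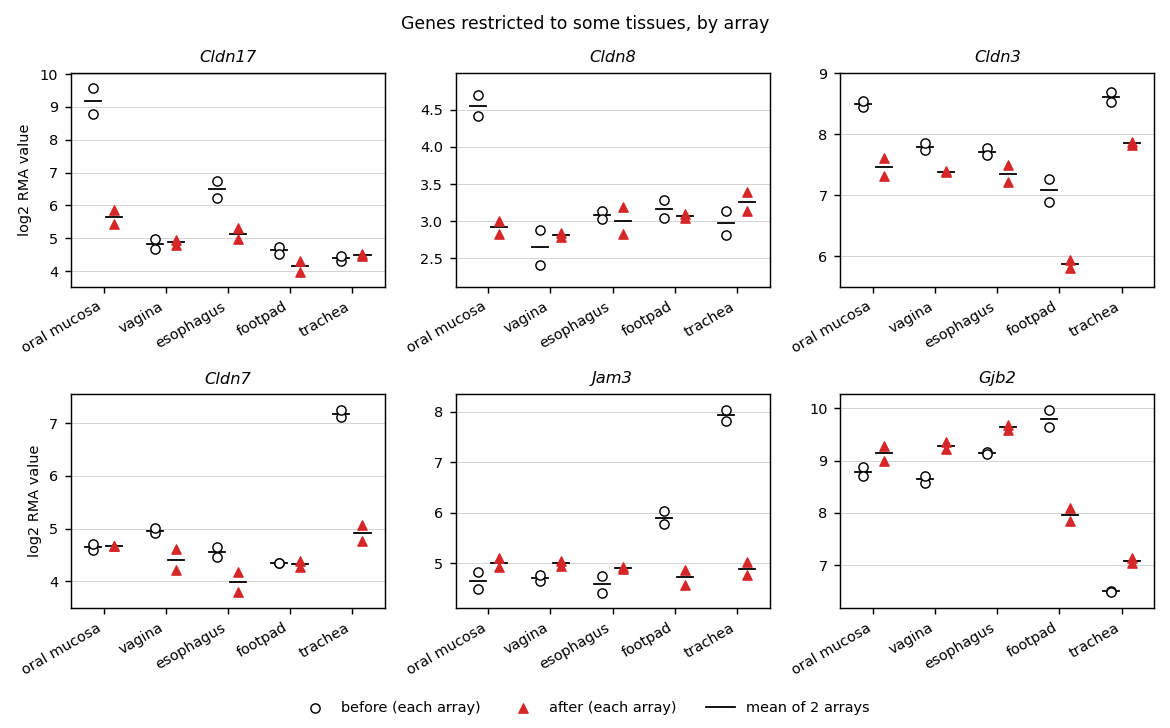
log2 RMA values of Cldn17, Cldn8, Cldn3, Cldn7, Jam3 and Gjb2 (panels, each with its own y axis) on every array, by tissue of origin (x axis). Open circles are arrays before transplantation, triangles arrays after, and lines the mean of 2 arrays. Before transplantation Cldn17 is highest in oral mucosa, and Cldn7 and Jam3 in trachea; after it oral mucosa Cldn17 and tracheal Cldn7 are closer to the other tissues, while tracheal Gjb2 is the lowest at both stages.

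The connexins differed between tissues through Gjb2, which encodes connexin 26, a gap junction protein of stratified epithelia. In footpad Gjb2 fell from 9.63 and 9.97 to 8.10 and 7.84 (-1.83 ± 0.13, limma adjusted p = 9.51e-08). In the other 4 tissues it did not reach 2-fold, with changes of 0.35 in oral mucosa (limma adjusted p = 0.078), 0.65 in vagina (0.0029), 0.49 in esophagus (0.0226) and 0.59 in trachea (0.00698), all opposite in sign to footpad. Tracheal cells had the lowest arrays at both stages, at 6.51 and 6.48 before and 7.03 and 7.14 after, -2.60 ± 0.10 and -1.92 ± 0.10 from the mean of the other 4 tissues (limma adjusted p = 8.16e-10 and 1.75e-08). Gja4, connexin 37, fell in vagina from 7.14 and 7.29 to 6.0 and 5.98 (-1.23 ± 0.14, limma adjusted p = 2.48e-05). Gja1, connexin 43, lay between 11.36 and 12.04 on all 20 arrays and was called in no test.

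Of the 15 cadherins none, and of the 7 desmosome genes 2, were called in the response of any tissue. The share of all genes called in any tissue was not counted. Of the 15 cadherins, 9 had a mean below 4.77, where a change may not be measurable. Cdh1, which encodes E-cadherin, lay between 9.68 and 10.86 on all arrays. It read 9.74 and 9.87 in footpad before and 10.53 and 10.55 after (0.73 ± 0.08), and 10.74 and 10.62 in oral mucosa before and 9.68 and 9.69 after (-0.995 ± 0.08). Neither reached 2-fold, and the difference between these responses was 1.73 ± 0.11 (limma adjusted p = 3.39e-08). Jup, plakoglobin, and Pkp1, a plakophilin, linker proteins of desmosomes, lay between 10.78 and 11.53 and between 11.13 and 11.95 and were called in no test. Tjp1, the scaffold ZO-1, lay between 9.62 and 10.71, was called in no single tissue, and its response differed between tissues by up to 1.06 (limma F test, adjusted p = 1.37e-05).

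The desmocollin genes Dsc2 and Dsc3 are neighbors that encode desmosomal cadherins, and they were called in different tissues. Dsc2 fell in oral mucosa from 11.16 and 10.96 to 9.68 and 9.68 (-1.38 ± 0.10, limma adjusted p = 2.13e-07). In vagina it went from 10.11 and 10.28 to 9.23 and 9.13 (-1.01 ± 0.10, limma adjusted p = 7.59e-06), a call that ended without the second array before (-0.93) or after transplantation (-0.97). Dsc3 rose in trachea from 10.08 and 10.07 to 11.15 and 11.20 (1.10 ± 0.08, limma adjusted p = 6.22e-07). In vagina and oral mucosa, where Dsc2 fell, Dsc3 was higher by 0.67 and 0.30 (limma adjusted p = 2.78e-05 and 0.0104), short of 2-fold. Tracheal cells had the lowest Dsc3 of the 5 tissues before transplantation, and the tracheal arrays stayed the lowest after it. Dsc2 was lowest in footpad at both stages, at 9.04 and 9.11 before and 8.81 and 8.77 after. Of 9 desmosome and cornified envelope partners, Evpl and Ppl, plakins of the envelope, fell in oral mucosa, and in footpad Evpl and Krt1 rose and Krt16 fell, while in trachea Krt16 rose.

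**Figure D5:**
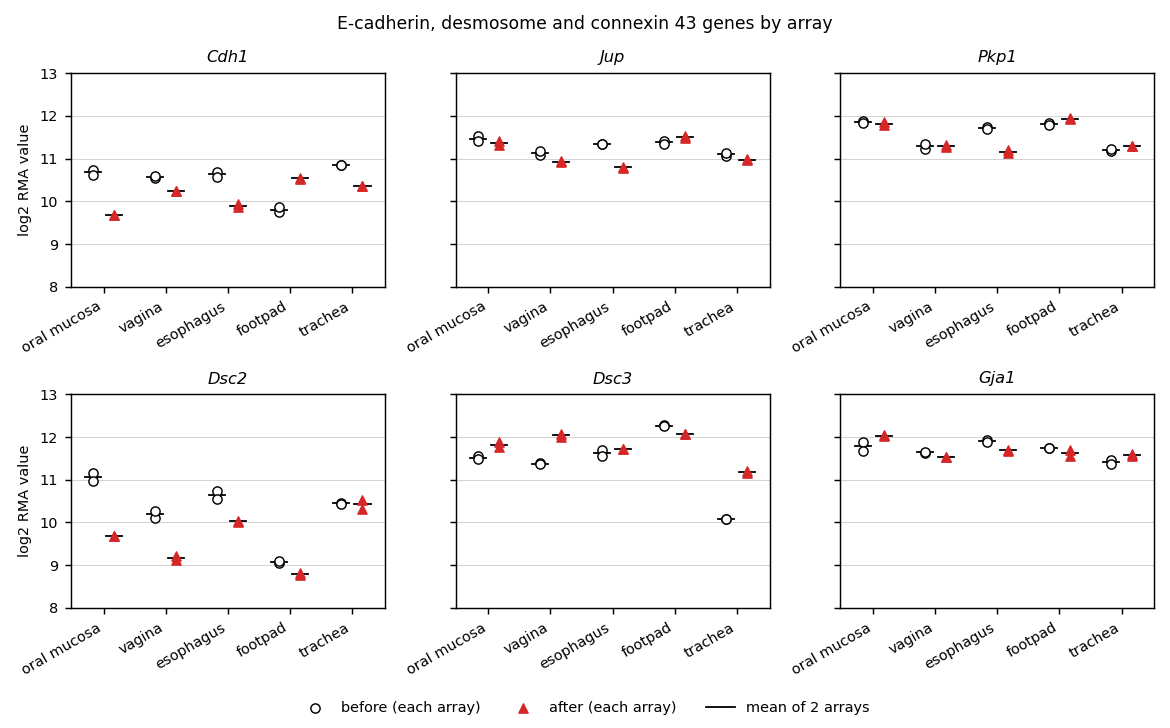
log2 RMA values of Cdh1, 2 desmosomal linker genes, 2 desmocollins and Gja1 (panels, one shared y axis from 8 to 13) on every array, by tissue of origin (x axis); open circles are arrays before transplantation, triangles arrays after, and lines the mean of 2 arrays. Gja1, Jup and Pkp1 stay within 1 unit over all arrays, while oral mucosa and vagina Dsc2 fall and tracheal Dsc3 rises.

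Differences between the tissues of origin were tested at each stage. Before transplantation 18 of the 62 genes differed between tissues past the F test and a 2-fold range, beside 12.2% of all genes. After transplantation 14 did, beside 15.6%, and 12 were called at both stages, a share that was not counted over all genes. The widest ranges of group means before were those of Cldn17 (4.79), Jam3 (3.35), Gjb2 (3.30), Cldn1 (2.99), Cldn7 (2.83), Epcam (2.51), Dsc3 (2.19) and Dsc2 (1.99). After transplantation they were those of Gjb2 (2.55), Epcam (2.51), Cldn1 (2.36), Cldn4 (2.04), Cldn3 (1.98), Ocln (1.64), Dsc2 (1.63) and Tjp3 (1.57). Cdh1, Cldn5, Cldn7, Cldn8, Dsc3 and Jam3 were called only before, and Cldn12 and Cldn23 only after, and whether the spread between tissues itself differed between stages was not tested. Each tissue was also set against the mean of the other 4, which made 310 comparisons for the 62 genes at each stage. Of these, 26 were called before transplantation and 15 after, beside 2.26% and 2.64% of such comparisons over all genes.

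The response to transplantation differed between tissues for 20 of the 62 genes, beside 24.0% of all genes. They were 6 of 24 claudins, 6 of 7 other tight junction genes, 3 of 15 cadherins, 2 of 7 desmosome genes and 3 of 9 connexins. Without footpad, an alternative added after the values had been seen, 13 of the 62 (21%) were called in the F test, beside 12% of all genes. All 13 were among these 20. In the response of 1 tissue against the mean of the other 4, 25 of 310 comparisons were called, beside 4.86% over all genes. Of the 62, 46 were called in no tissue's response, and these included all of the 26 genes with a mean below 4.77 except Cldn8. The share of all genes called in no tissue was not counted. No gene was called in the mean response over the 5 tissues by limma, as for 0% of all genes, and 3 of 62 (4.84%) had an unadjusted p under 0.05, beside 11.9% of all genes. These were Cldn3, Dsc2 and Tjp1, with mean changes of -0.75, -0.66 and -0.47.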

How the data were processed

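As the labels state, 100 ng of total RNA per array from EGFP-sorted cells was hybridized to Affymetrix Rat Gene ST arrays. The deposited log2 values came from the authors' RMA step (Affymetrix Expression Console), which corrects background, quantile-normalizes and summarizes probes by median polish. Quantile normalization removes differences in overall signal between arrays. Not given in the sources used here were the tool versions, the annotation build and which arrays were processed together. In all, 29215 probe sets were measured on 20 arrays, of which 15310 had 1 symbol in the platform annotation, 323 had several and 13582 were unnamed here. Values ran from 1.52 to 14.01, with array medians from 5.31 to 5.55. The number of arrays limits the precision, and no detection call was given. Cells of whisker and thymus were not analysed here.

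For each symbol the probe set with the highest mean was used. All 62 symbols matched RefSeq genes (GRCr8 assembly), which were used for names, neighbors and promoters. Groups were taken from tissue and stage in the labels. All 10 groups were fitted together with limma 3.58.1 in R 4.3.3 (lmFit and eBayes, 10 residual and 3.64 prior degrees of freedom), with Benjamini-Hochberg adjustment over all probe sets within each comparison and calls at adjusted p under 0.05 and fold over 2. F tests compared the tissues before, after and in their response, and the mean response over tissues was tested on the means of the 10 groups, with a block for tissue. The fits were tested on simulated data. The members, lists and tests were chosen with earlier results of these data known. Named were the genes that give the set its name and central junction genes, every gene called after versus before, the 8 widest called ranges of each F test, and at most 3 called genes per direction of each list. Same-numbered arrays did not deviate together (correlations from -0.15 to 0.03), so replicate numbers were not taken as pairs. The alternatives were the adjusted p alone, centering, an intensity trend, a filter on low values, the tissue's arrays alone, the replicate block, leaving out each array, leaving out each tissue from the mean response, and leaving out footpad from the F tests. E-boxes and the Grhl, AP-1, Sp and Klf, TATA and Ets motifs were searched on both strands.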

Additional observations from a re-analysis of the deposited data

Results flagged for a closer look

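The change after transplantation differed between tissues for 20 of the junction genes by the limma F test with a difference over 1 on the log2 scale between at least 1 pair of tissues. The largest difference between any pair of tissues in after minus before was 5.14 for Cldn1, 3.98 for Epcam, 3.64 for Cldn17, 3.46 for Ocln, 3.39 for Jam3, 3.21 for Cldn4, 2.65 for F11r, 2.52 for Tjp3, 2.48 for Gjb2 and 2.28 for Cldn7. For Cldn1, Epcam, Ocln, Cldn4, F11r and Tjp3 the widest pair was footpad and oral mucosa. It was 1.93 for Cldn8, 1.73 for Cdh1, 1.41 for Cdh13, 1.36 for Dsc2, 1.30 for Gja4, 1.29 for Dsc3, 1.23 for Cldn23, 1.08 for Cdh2, 1.06 for Tjp1 and 1.05 for Gjb5. No group of 2 arrays could be examined for single outlying arrays.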

How the results depend on the processing

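The 24 single-gene calls after versus before transplantation kept their direction under every alternative run, and none ended under centering, an intensity trend, the tissue's 4 arrays alone, the replicate block or the adjusted p alone. Under the filter on low values Cldn8 could not be tested and the other 23 kept their calls. Calls ended only when an array was left out, for Cldn3 and Cldn4 in oral mucosa and Dsc2 in vagina, as given above. Leaving out arrays gave 8 to 9 calls in oral mucosa, 1 to 3 in vagina, 1 in esophagus, 10 to 11 in footpad and 3 in trachea; in vagina the count was 1 without the second array before or after transplantation. It gave 19 to 22 genes whose response differed between tissues, 16 to 20 and 13 to 15 that differed between tissues before and after, and 24 to 26, 24 to 27 and 13 to 17 calls of 1 tissue against the other 4 in response, before and after. With the adjusted p alone, the counts were 20 in oral mucosa, 19 in vagina, 14 in esophagus, 16 in footpad and 12 in trachea, against 8, 2, 1, 10 and 3, and 26.7%, 25.8%, 18.1%, 39.1% and 18.9% of all genes passed; the 16 in footpad are 25.8% of the 62. They were 33 for a different response, 35 and 28 for differences between tissues before and after, against 20, 18 and 14, beside 47%, 46.2% and 50.7% of all genes. For 1 tissue against the other 4 they were 86, 90 and 85 in response, before and after, against 25, 26 and 15, beside 22.7%, 20.9% and 27.9%. Without footpad 13 genes were called for a different response, 12 for differences before and 9 for differences after transplantation, beside 12%, 8.38% and 9.27% of all genes. Without any 1 tissue in turn, limma called 0 of the 62 in the mean response, where 3 had an unadjusted p under 0.05 with all 5. With replicate number as a block, although the numbers do not pair the arrays, the counts were 8, 2, 1, 10 and 3 in the 5 tissues, 20 for a different response, and 18 and 14 between tissues before and after, and no call changed. Centering each array moved the median over all probe sets of the oral mucosa change from 0.05 to -0.09. Another choice of probe set per gene could not be run, since each gene had 1.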

Other observations

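Cdh13, which encodes T-cadherin, a cadherin without a transmembrane part, read 6.96 and 6.97 in trachea before transplantation, the lowest of the 5 tissues, and 7.39 and 7.58 after. In oral mucosa it read 8.56 and 8.43 before and 8.51 and 8.62 after, and after transplantation it was 1.05 ± 0.09 above the mean of the other 4 tissues there (limma adjusted p = 1.35e-06). Pkp2, a desmosomal plakophilin, differed between tissues at both stages, with ranges of group means of 1.23 before and 1.10 after, and was called in no tissue's response. Cdh2, which encodes N-cadherin, lay between 4.35 and 5.58 on all arrays. Its response differed between tissues by up to 1.08 (limma F test, adjusted p = 0.0134), although it was called in no single tissue. Its changes were -0.58 in vagina, -0.46 in footpad and -0.76 in trachea, the tissues in which 7, 9 and 6 of 14 fibroblast markers fell, and 0.32 in oral mucosa and 0.17 in esophagus, where none fell. The part of these markers in the values was not tested.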
